A study of Mus musculus with 70 samples.

Results

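The 6 genes described here code for neurotrophins and for the receptors that bind them. They were taken by symbol from the table of expression values, Bdnf and Ntf3 as ligands, Ntrk2 and Ntrk3 as receptor tyrosine kinases, Ngfr as the shared neurotrophin receptor and Sort1 as the sorting receptor. All 6 were present among the 24346 genes listed, and 5 of them were among the 12994 genes that averaged 1 FPKM or more and were tested. FPKM are fragments per kilobase of transcript, set relative to the mapped fragments of the library, a level scaled for transcript length and library size. Ngfr, with a mean of 0.596 FPKM, was below that minimum and was tested only in an alternative with a minimum mean of 0.1 FPKM, which covered 16083 genes.

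Neurotrophins are secreted as precursors that are cut to mature forms. Mature BDNF acts mainly through TrkB, the product of Ntrk2, and neurotrophin-3 through TrkC, the product of Ntrk3, whereas the precursors bind p75NTR, the product of Ngfr, together with sortilin, the product of Sort1. In the hippocampus Bdnf is transcribed chiefly in excitatory neurons, is induced by neuronal activity, and is the neurotrophin most closely tied to exercise and to synaptic plasticity.

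Bulk RNA of the dorsal hippocampus was sequenced from 70 adult male C57BL/6 J mice, 10 in each of 7 groups, with 5 per group from each of 2 harvest cohorts collected 24 h apart. Exercise was voluntary wheel running, and the names of the exercise groups give, in order, the days spent running at first, the days of rest and the days of running again (0-0-2, 14-14-0, 14-7-2, 14-7-0 and 14-0-0). Those mice and the sedentary mice (0-0-0) had a 3-min subthreshold training session in the Object Location Memory task (OLM) 1 h before tissue collection. Home cage mice had neither exercise nor training. All animals were housed singly, and each library came from 1 animal.

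The expression table holds FPKM alone, and no read counts were used here. A relative depth read from the steps of the lowest values lay between 0.342 and 1.48 in 69 libraries and was 0.0367 in 14-7-0 replicate 4. None of the 6 genes was listed at 0 in any library. Sedentary replicate 6 went against its tissue label. The excitatory neuron marker Slc17a7 measured 17.1 FPKM in it against 367 to 870 FPKM in the other 69 libraries, and the cholinergic marker Chat 6.34 FPKM against at most 1.71 FPKM. Summed FPKM of 3 cholinergic markers were 15.2 in sedentary replicate 6, 4.51 in 0-0-2 replicate 4 and 1.58 in 14-14-0 replicate 3, and at most 0.407 in every other library. Results that rest on these libraries are given with and without them.

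Bdnf and the receptors differ in how many products the gene-level values combine. In the GENCODE M21 annotation of GRCm38, Bdnf lies on the plus strand of chromosome 2 at chr2:109674700-109727007, with 11 transcripts that begin at 9 different starts. Ntrk2 (chr13:58806569-59133970, plus strand) has 10 transcripts, and its protein-coding ones have coding lengths from 1398 to 2463 bp. Ntrk3 (chr7:78175959-78738012, minus strand) has 20 transcripts. The FPKM of a gene sum all of these, so the separate starts of Bdnf, and the full-length and shorter receptor forms, were not told apart. Ntf3 lies at chr6:126101412-126166910 (minus strand), Ngfr at chr11:95568818-95587735 (minus strand) and Sort1 at chr3:108284082-108361511 (plus strand).

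The sequences upstream of the starts of Bdnf are of interest because activity-dependent transcription of Bdnf is known to pass through CREB, which binds the cAMP response element TGACGTCA and its shorter form TGACG. RefSeq upstream windows of 250 bases (GRCm38.p6) were held for 7 starts of Bdnf, 2 of Ntf3, 1 of Ntrk2 and 1 of Ngfr. The 8-base element occurred on either strand in 0 of the 7 Bdnf windows and in 1.55% of 32851 windows of all genes. The 5-base form, or its complement CGTCA, occurred in 1 of the 7 Bdnf windows and in none of those of Ntf3, Ntrk2 and Ngfr, against 17.8% of all windows. That match lay upstream of the third Bdnf start, at chr2:109692401-109692405 on the plus strand, and its first base was 35 bases before the start. It is shown within a stretch of 41 bases (chr2:109692383-109692423, plus strand, in no annotated exon), and the capitals mark the match.
Bdnf, upstream of the third start: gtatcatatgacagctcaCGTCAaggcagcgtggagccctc
The E-box CACGTG was found in 1 of the 2 Ntf3 windows and 6.02% of all windows, and the EGR element GCGTGGGCG in none of the members' windows and 0.54% of all. These matches describe letters, and no binding was measured.

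The 6 genes covered more than 2 orders of magnitude in level. Averaged over 70 libraries, Sort1 measured 153 FPKM and Ntrk2 88.9 FPKM, at the 96.4th and 93.2nd percentile of the genes tested. Ntrk3 measured 30.3 FPKM, Bdnf 19.98 FPKM and Ntf3 7.38 FPKM. The receptor for BDNF was therefore listed at a higher level per length of transcript than its ligand, as was TrkC against neurotrophin-3, and Ngfr was lowest. As bulk tissue was measured, fewer cells of a type and less RNA per cell cannot be told apart in any of these values. The plot of the 6 genes by library shows how far the groups overlap.

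**Figure D1:**
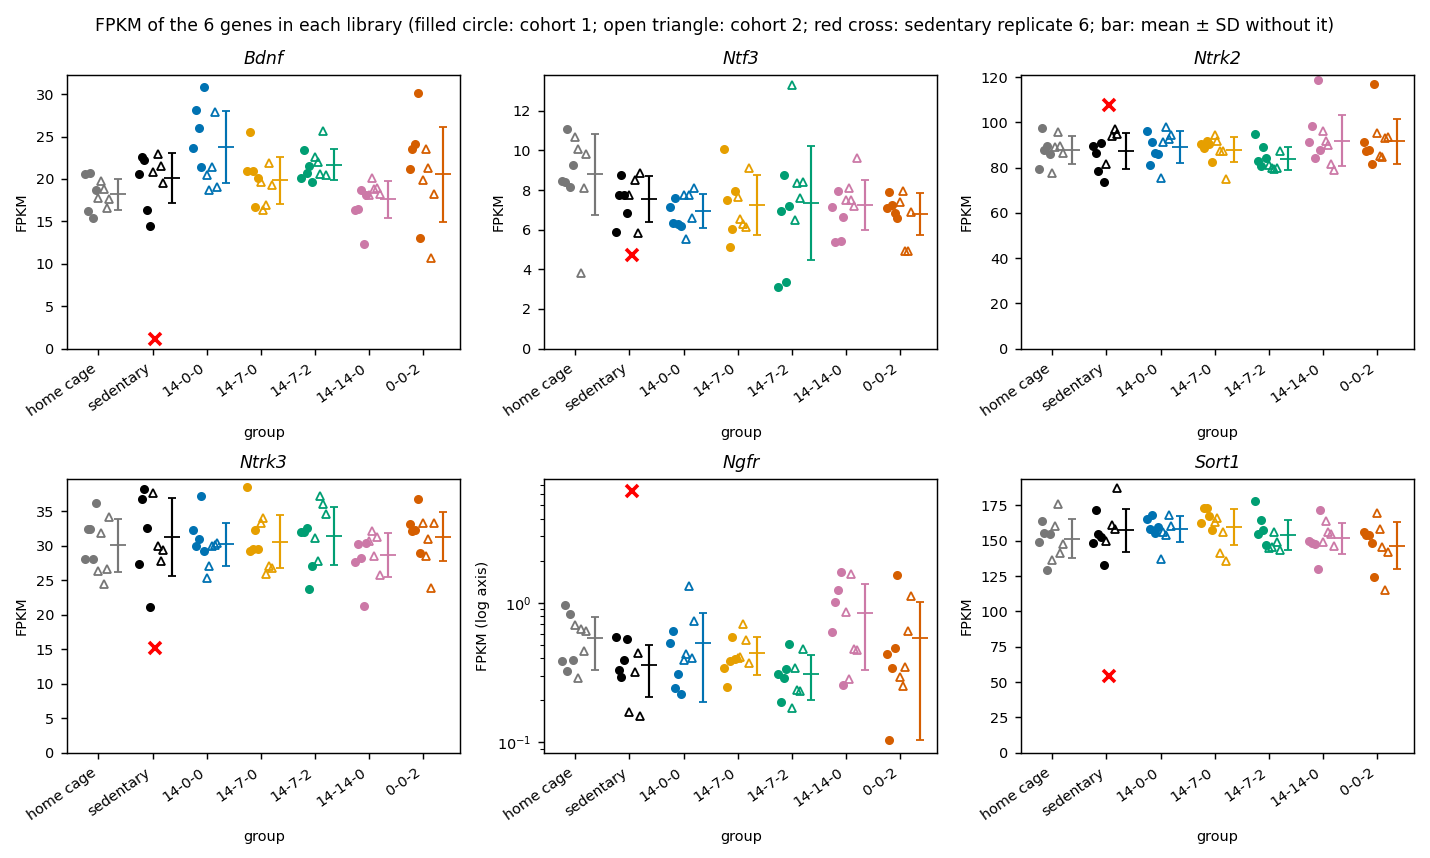
FPKM of the 6 genes (y axis, linear from 0 except for Ngfr, which has a log axis) in each of the 70 libraries by group (x axis). Filled circles are cohort 1, open triangles cohort 2, the red cross is sedentary replicate 6, and bars give the mean ± SD without it. Bdnf is highest in 14-0-0 and lowest in 14-14-0, while Ntrk2, Ntrk3 and Sort1 overlap in all groups.

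Bdnf, the ligand of TrkB, was highest in mice trained in the task after 14 days of exercise with no days of rest, and lowest in mice that had rested for 14 days since. In 14-0-0 it measured 18.7 FPKM in the lowest library, 22.6 FPKM at the median and 30.8 FPKM in the highest. In 14-14-0 the corresponding values were 12.4, 18.2 and 20.1 FPKM. The groups overlapped, but 8 of 10 libraries of 14-0-0 lay above every library of 14-14-0. The means were 23.8 ± 4.24 FPKM and 17.6 ± 2.17 FPKM (SD, n = 10 each), a log2 difference of 0.42 (1.34-fold, standard error 0.0975, 95% confidence interval 0.22 to 0.62). Differences and tests are on log2(FPKM + 0.1), and a gene was called at an unadjusted p under 0.05 in limma's moderated test, the threshold used by the study. Bdnf was called (p = 0.000319) in a comparison in which 7.16% of all genes tested were called, and it was the only one of the 5 tested members called. Benjamini-Hochberg adjustment over the 12994 genes gave Bdnf an adjusted p of 0.247 in limma, which does not pass 0.05. Bdnf belongs to a list of genes that the study itself drew from these libraries as higher than sedentary only in 14-0-0 and 14-7-2. The direction of its differences in these 2 groups is therefore not independent evidence. The same holds for the differences of these 2 groups from the other exercise groups, in which listed genes were not found higher.

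Between 14 days of exercise and the same exercise followed by 7 days of rest, the difference of Bdnf was smaller. In 14-7-0 Bdnf ranged from 16.3 to 25.6 FPKM with a median of 19.9 FPKM, and 4 of 10 libraries of 14-0-0 lay above all of these. The log2 difference of 14-0-0 from 14-7-0 was 0.25 (95% confidence interval 0.05 to 0.46, limma p = 0.018, adjusted p = 0.73), and 5.63% of all genes were called. Bdnf was again the only tested member called. Its calls against 14-14-0 and 14-7-0 held in each of the 20 fits that left out 1 library. Both were lost when 1 spread was estimated from all 7 groups, which takes in sedentary replicate 6 (limma p = 0.0759 and 0.283, with 4.92% and 6.08% of genes called).

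Reactivating exercise after the 7-day delay was compared with the delay alone and with 2 days of exercise alone. Bdnf in 14-7-2 was among the least variable of the exercise groups, from 19.6 to 25.7 FPKM with a median of 21.1 FPKM and a mean of 21.7 ± 1.84 FPKM (SD, n = 10). In 9 of 10 libraries of 14-7-2 Bdnf was above the median of 14-7-0. The log2 difference from 14-7-0 was 0.14 (95% confidence interval -0.02 to 0.29, limma p = 0.0768), and Bdnf was not called in a comparison that called 5.39% of genes. Without 14-7-0 replicate 1, the library of 25.6 FPKM, the difference was 0.18 and was called (limma p = 0.0118). Against 0-0-2, where Bdnf ranged from 10.7 to 30.1 FPKM with a median of 21.2 FPKM, the difference was 0.13 (95% confidence interval -0.16 to 0.41, limma p = 0.366, 2.43% of genes called). Both intervals include 0, and at their upper limits Bdnf in 14-7-2 would be higher by 0.29 than in 14-7-0 and by 0.41 than in 0-0-2.

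The 2 harvest cohorts did not give the same difference of Bdnf between 14-0-0 and 14-14-0. In cohort 1 the 5 libraries of 14-0-0 measured 23.7, 28.2, 26.1, 21.4 and 30.8 FPKM and the 5 of 14-14-0 measured 16.4, 16.4, 18.7, 12.4 and 18.1 FPKM. These groups did not overlap, and the log2 difference was 0.67 (limma p = 0.000392), in a comparison in which 17.9% of genes were called. In cohort 2 the 14-0-0 libraries measured 20.5, 18.7, 21.4, 27.9 and 19.1 FPKM and the 14-14-0 libraries 18.1, 20.1, 18.8, 19.0 and 18.3 FPKM. Those overlapped, and the difference was 0.18 (limma p = 0.115, 4.76% of genes called). Cohort 2 minus cohort 1 was -0.49 (standard error 0.169, limma p = 0.00942, adjusted p = 0.166), where 17.3% of genes were called, so that many genes differed between cohorts in this contrast. For 14-0-0 against 14-7-0 the cohorts gave 0.32 (limma p = 0.0285, 3.65% of genes called) and 0.19 (limma p = 0.154, 4.79%), and their difference was not called (limma p = 0.464, 3.21%). For 14-7-2 against 14-7-0 cohort 1 gave 0.03 (4.17% of genes called) and cohort 2 gave 0.25 (limma p = 0.0273, 5.20%), and again the difference between cohorts was not called (limma p = 0.142, 3.70%).

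Markers of the choroid plexus, a tissue that lines the ventricle beside the hippocampus, moved with these cohorts. The summed FPKM of 6 choroid plexus markers had a median of 231 in 14-0-0 cohort 1 (range 47.7 to 4475) and 6828 in 14-0-0 cohort 2 (34.2 to 16030). In 14-14-0 the medians were 10050 in cohort 1 (66.3 to 21750) and 69.1 in cohort 2 (42.5 to 6577). Each cohort thus held high and low libraries in both groups, and the order of the groups by this sum was opposite in the 2 cohorts. Of the 6 markers, Folr1 and Kcnj13 were at 0 in some library, and the other 4 never were. The choroid plexus score of a library was the mean of log2(FPKM + 0.1) over these 6 markers. With this score as a covariate, the difference of Bdnf between 14-0-0 and 14-14-0 was 0.43 (limma p = 2.71e-05, adjusted p = 0.0511). That between 14-0-0 and 14-7-0 was 0.38 (limma p = 0.00223). The share of all genes called in the fits with the score was not computed. In a fit without the score and without 14-14-0 replicate 3, the difference between 14-0-0 and 14-14-0 was 0.37 (limma p = 0.000449, 6.62% of genes called).

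**Figure D2:**
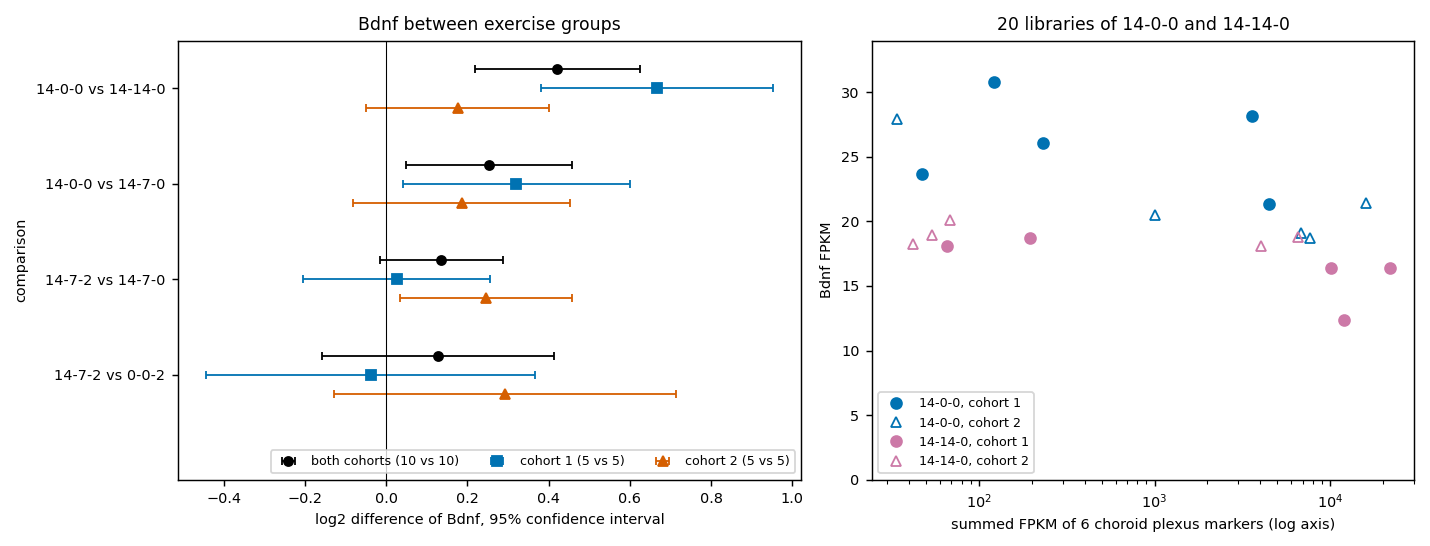
Left, log2 difference of Bdnf (x axis) with its 95% confidence interval in 4 comparisons of exercise groups (y axis), for both cohorts (10 against 10 libraries) and each cohort alone (5 against 5). Right, Bdnf in FPKM (y axis) against the summed FPKM of 6 choroid plexus markers (x axis, log scale) in the 20 libraries of 14-0-0 and 14-14-0. The difference between 14-0-0 and 14-14-0 is 0.67 in cohort 1 and 0.18 in cohort 2, and the sum spans 34.2 to 21750 in both groups together.

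Comparisons with sedentary mice share the 10 sedentary libraries, among them replicate 6, and are given side by side. With all libraries, 0 of the 5 tested members were called by limma at an unadjusted p under 0.05 in any of the 6 comparisons. Of all genes tested, 2.30% were called in home cage, 2.37% in 0-0-2, 3.26% in 14-7-0, 4.39% in 14-7-2, 4.95% in 14-14-0 and 9.15% in 14-0-0. A version of the regularized test of Cyber-T, written here, called Bdnf in 14-0-0 (p = 0.0118) and no other member in any of them. The study's list from its own Cyber-T test also held Bdnf in 14-7-2, which this version did not call. The share of all genes called by this version was not computed. Without sedentary replicate 6 the limma test also called Bdnf in 14-0-0 (log2 difference 0.24, standard error 0.106, 95% confidence interval 0.01 to 0.46, p = 0.0381, adjusted p = 0.444), where 10.3% of genes were called, and no other tested member in any comparison. In cohort 1 Bdnf averaged 26.0 ± 3.70 FPKM in 14-0-0 and 19.2 ± 3.66 FPKM in sedentary (SD, n = 5 each). The log2 difference there was 0.44 (limma p = 0.0112, 7.94% of genes called). In cohort 2 the averages were 21.5 ± 3.75 FPKM (n = 5) and, without replicate 6, 21.2 ± 1.43 FPKM (n = 4). Without that replicate the difference between cohorts was itself called (-0.43, standard error 0.196, limma p = 0.0401, adjusted p = 0.663, 6.31% of genes called), whereas with it this was 0.38 (limma p = 0.635). The shares of genes called in the other comparisons without replicate 6 were 2.52% in 0-0-2, 3.15% in home cage, 3.29% in 14-7-0, 3.58% in 14-7-2 and 6.97% in 14-14-0.

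The remaining sedentary libraries place Bdnf in the middle of the range of the groups. Those 9 libraries measured 14.4 to 22.9 FPKM with a median of 20.8 FPKM, and 5 of 10 libraries of 14-0-0 exceeded all of them. None of the 10 libraries of 14-14-0, and none of the 10 of home cage (15.4 to 20.7 FPKM), was above the sedentary median. The log2 differences from these 9 libraries were -0.19 in 14-14-0 (95% confidence interval -0.38 to 0.01, limma p = 0.0624) and -0.13 in home cage (-0.31 to 0.04, limma p = 0.131), neither of them called. In 14-7-2 the difference was 0.12 (-0.05 to 0.29), in 14-7-0 -0.02 (-0.21 to 0.18) and in 0-0-2 -0.01 (-0.33 to 0.31). With replicate 6 included all 6 differences were positive, from 0.21 to 0.63, with confidence limits reaching below 0.

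A test for any difference among the 7 groups called none of the 5 members with all libraries (limma, 7.63% of genes called). Without sedentary replicate 6 it called Bdnf (F = 3.45, limma p = 0.00506, adjusted p = 0.331), where 8.47% of genes were called, and the lowest p of the other 4 tested members was 0.288. At a minimum mean of 0.1 FPKM and without that replicate, Ngfr was called as well (F = 3.16, limma p = 0.00878, adjusted p = 0.37). Group accounted for 24.5% of the variance of Bdnf over the 69 libraries and 22.9% of that of Ngfr. It accounted for 9.31% for Ntf3, 10.1% for Ntrk2, 5.18% for Ntrk3 and 11.2% for Sort1. Such a share is above 0 by chance alone when libraries are split into 7 groups, and these last 4 genes were not called. In the order of the group means of Bdnf, only the gap between 14-0-0 and 14-7-2 exceeded the smaller of the neighbours' standard deviations. The other neighbours in the order 14-7-2, 0-0-2, sedentary, 14-7-0, home cage and 14-14-0 did not differ beyond their spread.

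**Figure D3:**
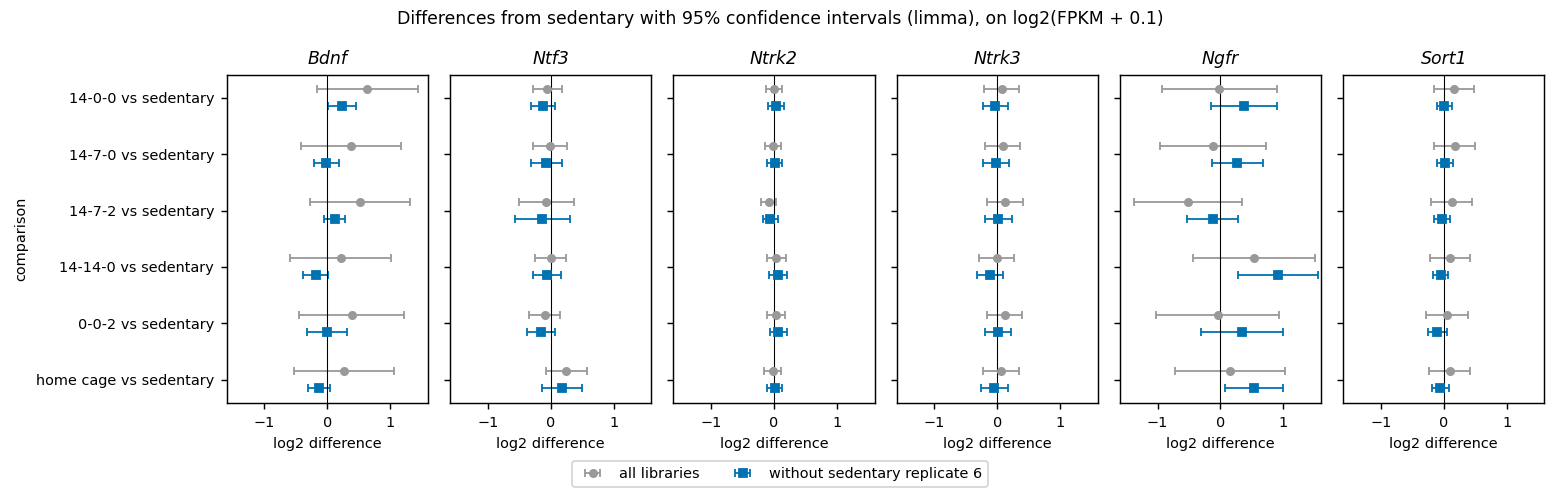
Log2 difference from sedentary (x axis) with its 95% confidence interval for each of the 6 genes in 6 comparisons (y axis). Grey circles use all libraries and blue squares leave out sedentary replicate 6, and Ngfr comes from the fit with a minimum mean of 0.1 FPKM. Leaving out that library moves Bdnf in 14-0-0 from 0.63 to 0.24 and Ngfr in 14-14-0 from 0.53 to 0.92, and hardly moves Ntrk2.

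Ntf3, which codes for the TrkC ligand neurotrophin-3 and in the hippocampus is expressed mainly in the dentate gyrus, was highest in home cage mice. In that group it measured 3.82 FPKM in the lowest library, 8.87 FPKM at the median and 11.1 FPKM in the highest. Sedentary libraries measured 4.73, 7.77 and 8.84 FPKM, and 5 of 10 home cage libraries exceeded all of them. The log2 difference was 0.25 (95% confidence interval -0.08 to 0.58, limma p = 0.131) and was not called. The result depended on single libraries. With sedentary replicate 6 kept and home cage replicate 7, the library of 3.82 FPKM, left out, the difference was 0.37 (limma p = 0.00288). With only sedentary replicate 6 left out it was 0.18 and was not called. Cohort 1 alone gave 0.29 (limma p = 0.0376, 1.50% of genes called) and cohort 2 alone 0.20.

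The exercise groups gave Ntf3 means between 6.78 ± 1.07 FPKM in 0-0-2 and 7.36 ± 2.88 FPKM in 14-7-2 (SD, n = 10). Their log2 differences from sedentary lay between -0.09 and 0.003 with all libraries. With sedentary replicate 6 left out they lay between -0.16 in 0-0-2 and -0.06 in 14-14-0. Without sedentary replicate 6, only the gap between home cage and the next group exceeded the smaller of the neighbours' standard deviations. The 14-7-2 libraries were the most spread of all groups, from 3.10 to 13.3 FPKM. They averaged 5.88 ± 2.52 FPKM in cohort 1 and 8.84 ± 2.62 FPKM in cohort 2 (SD, n = 5 each), while 0-0-2 averaged 7.14 ± 0.486 FPKM and 6.42 ± 1.42 FPKM. The difference between 14-7-2 and 0-0-2 was accordingly -0.39 in cohort 1 and 0.44 in cohort 2, and the change between cohorts was 0.83 (standard error 0.359, limma p = 0.0321, adjusted p = 0.743), where 6.66% of genes were called.

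Ntrk2, the gene of the BDNF receptor TrkB, stayed within a narrow range. Group medians lay between 82.1 FPKM in 14-7-2 and 91.3 FPKM in 14-0-0, and the log2 differences from sedentary between -0.09 and 0.04. No neighbours in the order of its group means, from 14-14-0 (91.9 FPKM) to 14-7-2 (84.0 FPKM), differed beyond the smaller of their standard deviations. Its lowest group was 14-7-2, from 79.5 to 94.9 FPKM, and 5 of its 10 libraries were below every library of 0-0-2, which ranged from 81.6 to 117 FPKM with a median of 89.5 FPKM. The log2 difference between these groups was -0.12 (standard error 0.0544, 95% confidence interval -0.23 to -0.01) and was called (limma p = 0.0379, adjusted p = 1). Ntrk2 was the only tested member called there, where 2.43% of genes were. The call was lost when any of 10 of the 20 libraries was left out, namely 0-0-2 replicates 4, 5, 8 and 9 and 14-7-2 replicates 1, 2, 5, 6, 7 and 8. The change was greatest without 0-0-2 replicate 4, the library of 117 FPKM and of the second highest cholinergic sum, which left -0.08 (limma p = 0.0662). Cohort 1 gave -0.10 (limma p = 0.324, 3.20% of genes called) and cohort 2 gave -0.14 (limma p = 0.031, 4.03%).

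Against sedentary mice the sign of the Ntrk2 difference depended on the cohort. Sedentary libraries averaged 83.9 FPKM in cohort 1 and 95.1 FPKM in cohort 2, or 92.0 FPKM without replicate 6. For 14-7-2 these averages were 86.4 and 81.6 FPKM and for 14-14-0 they were 96.2 and 87.7 FPKM. The log2 difference of 14-7-2 was 0.05 in cohort 1 and -0.22 in cohort 2 (limma p = 0.0235, 4.23% of genes called), and the difference between cohorts was -0.26 (standard error 0.108, limma p = 0.0266, adjusted p = 0.953, 2.42% of genes called). For 14-14-0 the difference between cohorts was -0.31 (standard error 0.135, limma p = 0.0353, adjusted p = 1, 2.03% of genes called). Without sedentary replicate 6 they were -0.22 (limma p = 0.0478, 1.79% of genes called) and -0.26 (limma p = 0.065, 1.59%).

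Ntrk3 and Sort1 were not called in any comparison of 2 groups that was fitted, with all libraries, without sedentary replicate 6 or in either cohort alone. Ntrk3, which codes for the neurotrophin-3 receptor TrkC, averaged between 28.6 ± 3.19 FPKM in 14-14-0 (21.4 to 32.1 FPKM) and 31.4 ± 4.19 FPKM in 14-7-2 (23.8 to 37.3 FPKM; SD, n = 10). Its log2 differences from sedentary lay between -0.01 and 0.12 with all libraries and between -0.11 and 0.02 without replicate 6. Sort1, which codes for sortilin, a carrier of BDNF precursor to the regulated secretory pathway, averaged between 147 ± 16.4 FPKM in 0-0-2 (115 to 170 FPKM) and 160 ± 12.5 FPKM in 14-7-0 (136 to 173 FPKM). Its differences from sedentary were 0.05 to 0.18 with all libraries and -0.10 to 0.02 without replicate 6, which measured 54.2 FPKM. Without it the difference of Sort1 between 14-7-0 and sedentary changed with the cohort, from averages of 167 and 152 FPKM in cohort 1 to 152.5 and 164 FPKM in cohort 2 (-0.24, standard error 0.114, limma p = 0.0487, adjusted p = 1), where 0.831% of genes were called. All groups overlapped for both genes, and no neighbours in the order of their means differed beyond their spread. Among exercise groups, 14-0-0 was fitted against 14-7-0 and 14-14-0, and 14-7-2 against 14-7-0 and 0-0-2. Those differences were within -0.02 to 0.08 for Ntrk3 and -0.05 to 0.08 for Sort1. Other pairs of exercise groups were not fitted.

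Ngfr, the gene of the low-affinity receptor p75NTR, is known in the adult brain chiefly from cholinergic neurons of the basal forebrain, and was low here. In sedentary libraries it measured 0.153 FPKM in the lowest, 0.359 FPKM at the median and 6.31 FPKM in the highest, which was replicate 6, and 0.564 FPKM was the next. In 14-14-0 the values were 0.259, 0.737 and 1.67 FPKM, and 6 of 10 libraries lay above every sedentary library other than replicate 6. In home cage they were 0.287, 0.541 and 0.969 FPKM, and 5 of 10 lay above. With a minimum mean of 0.1 FPKM and all libraries, Ngfr was not called in any comparison with sedentary (limma p from 0.223 to 0.971). Of all genes at that minimum, 2.72% were called in 0-0-2, 3.06% in home cage, 3.48% in 14-7-0, 4.64% in 14-7-2, 6.14% in 14-14-0 and 9.74% in 14-0-0.

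Without sedentary replicate 6, Ngfr was 1.89-fold higher in 14-14-0 than in sedentary mice (log2 difference 0.92, standard error 0.303, 95% confidence interval 0.29 to 1.55, limma p = 0.00673, adjusted p = 0.541), where 8.28% of genes were called. In home cage it was 1.45-fold higher (log2 difference 0.53, standard error 0.219, limma p = 0.0248, adjusted p = 0.988), where 3.94% were called. The log2 differences of Ngfr in the other 4 groups, none of them called, were 0.37 in 14-0-0 (10.8% of genes called), 0.34 in 0-0-2 (2.93%), 0.27 in 14-7-0 (3.33%) and -0.13 in 14-7-2 (4.00%). Permutation tests (100000 resamples, 2-sided) of the same differences gave p = 0.0121 and 0.0323, and 0.0724 and 0.0968 after adjustment over the 6 comparisons of Ngfr. Without 14-14-0 replicate 3 as well, the difference of 14-14-0 was 0.80, with no test. Summed FPKM of 8 markers of meninges and fibroblasts had medians of 68.0 in 14-14-0 (19.2 to 241) and 42.0 in home cage (26.0 to 183) against 25.1 in the 9 sedentary libraries (16.8 to 55.1), and those of the choroid plexus 2105, 126 and 74.8. Their part in the difference of Ngfr was not tested. Cholinergic sums had medians of 0.183, 0.173 and 0.201 in the same 3 groups.

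Ngfr was listed lower in 14-7-2, after reactivating exercise, than in 14-7-0, after the delay alone, a difference that did not pass adjustment. In 14-7-0 replicate 4, the library of relative depth 0.0367, it measured 0.396 FPKM. Ngfr was not tested without that library. In 14-7-2 Ngfr measured 0.175 FPKM in the lowest library, 0.299 FPKM at the median and 0.508 FPKM in the highest, against 0.249, 0.398 and 0.701 FPKM in 14-7-0, and 4 of 10 libraries of 14-7-2 were below all of 14-7-0. The log2 difference was -0.39 (standard error 0.163, 95% confidence interval -0.73 to -0.06, limma p = 0.0249, adjusted p = 0.853), where 5.26% of genes were called, and it was -0.19 in cohort 1 and -0.59 in cohort 2. The median meningeal sums of the groups were 30.3 and 29.3. Between 14-0-0 and 14-14-0 the difference of Ngfr was -0.55 (95% confidence interval -1.21 to 0.11, limma p = 0.0996, 6.90% of genes called), which was not called.

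Bdnf and Ngfr ran in opposite directions across libraries. Over the 69 libraries without sedentary replicate 6, Pearson's r between their log2 values was -0.545 (permutation p = 2e-05, adjusted p = 0.00015 over 15 pairs of members) and Spearman's rho -0.583 (permutation p = 1e-05, the smallest these permutations can give, adjusted p = 0.00015). Pearson's r was -0.511 without the 2 libraries farthest from the median of Bdnf, -0.672 in cohort 1, -0.369 in cohort 2 and -0.524 within groups. For this and the other pairs, permutations exchanged libraries across groups and cohorts, so their p-values also take in differences between groups. The value within groups was not tested. Without 14-14-0 replicate 3 and 0-0-2 replicate 4, which hold the highest cholinergic sums of the 69, it was -0.446. Over the same libraries the excitatory neuron markers gave r = 0.532 with Bdnf and -0.527 with Ngfr, and the meningeal markers -0.374 and 0.631. The libraries differed in these marker sums and in relative depth, and the part of either in the relation between Bdnf and Ngfr was not tested.

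**Figure D4:**
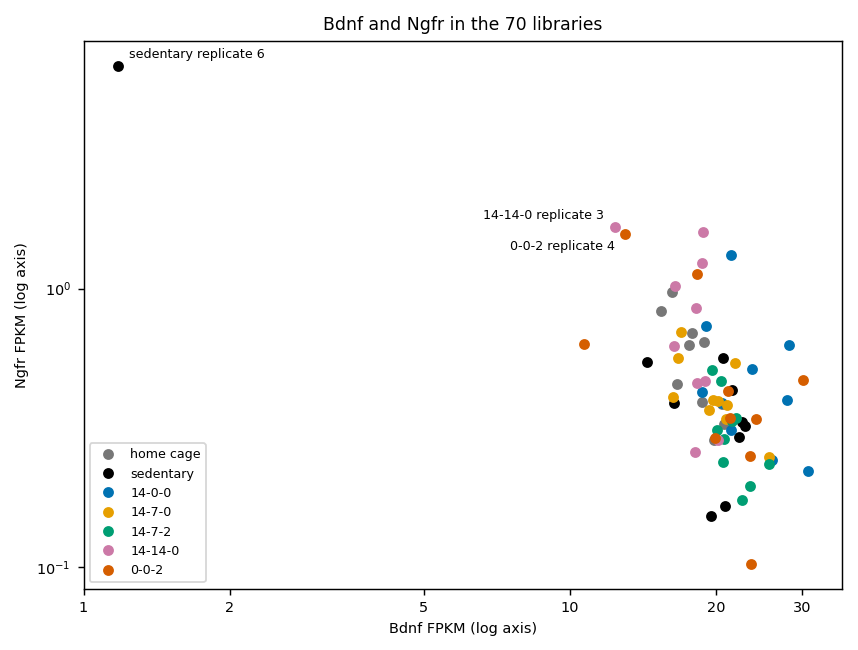
Ngfr (y axis, FPKM, log scale) against Bdnf (x axis, FPKM, log scale) in the 70 libraries, coloured by group, with 3 libraries named. Sedentary replicate 6 stands alone at 1.18 and 6.31 FPKM, and among the other 69 libraries those with more Bdnf have less Ngfr (r = -0.545).

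Of the 15 pairs of members, the next relation by size joined Bdnf and Sort1 (r = 0.522, permutation p = 1e-05, adjusted p = 0.00015; rho = 0.355, permutation p = 0.00289, adjusted p = 0.0108). It was 0.372 without the 2 farthest libraries, and 0.562 and 0.481 in the 2 cohorts. Bdnf and its receptor Ntrk2 gave r = -0.357 (permutation p = 0.00294, adjusted p = 0.00551; rho = -0.258, permutation p = 0.0326, adjusted p = 0.0445). This was -0.251 without the 2 farthest libraries, -0.495 in cohort 1, -0.146 in cohort 2 and -0.154 without 14-14-0 replicate 3 and 0-0-2 replicate 4, so that it rested largely on those last libraries. Ntf3 and its receptor Ntrk3 gave r = 0.339 (permutation p = 0.00453, adjusted p = 0.00755; rho = 0.301, permutation p = 0.0121, adjusted p = 0.0202), 0.343 without the 2 farthest libraries, and 0.39 and 0.319 in the 2 cohorts.

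The genes whose log2 values were most like those of a member over the 69 libraries are given as a description, by Pearson's r among the genes tested. For Bdnf they were Chn1 (0.864), Zbtb18 (0.811) and Ano3 (0.809), and for Ntf3 they were Tiam2 (0.795), Pdyn (0.715), which codes for prodynorphin, and Prkd1 (0.677). For Ntrk2 they were Tbl1x (0.795), Usp6nl (0.788) and Abat (0.772), the GABA transaminase gene. For Ntrk3 they were Mycbp2 (0.877), Scn3a (0.871), a sodium channel gene, and Cttnbp2 (0.867). Ngfr was most like Vat1l (0.78), Nynrin (0.758) and Cdc42ep3 (0.747). Sort1 was most like Adcy9 (0.822), Atrn (0.802) and the sodium channel gene Scn8a (0.792).

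Of 56 other genes of neurotrophin processing and signalling, 48 were tested. With all libraries 2 of the 48 were called in 14-0-0 and in 14-14-0, and 1 in each of the other comparisons with sedentary, none with an adjusted p under 0.05. These counts are near or below the 2.30% to 9.15% called among all genes, and nothing is read from them about the list. Gab1, a docking protein downstream of receptor tyrosine kinases, was lower in 14-0-0 (log2 difference -0.32, limma p = 0.0332), 14-7-2 (-0.31, limma p = 0.028) and 0-0-2 (-0.38, limma p = 0.0243). Sorcs2, a sortilin-family receptor for BDNF precursor, was lower in 14-0-0 (-0.28, limma p = 0.0133) and 14-14-0 (-0.22, limma p = 0.045). Sorcs3 of the same family was higher in 14-7-0 (0.19, limma p = 0.0215), the adaptor Shc1 was higher in 14-14-0 (0.24, limma p = 0.0139), and Irs1 was higher in home cage (0.18, limma p = 0.0431).

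The medians of the 48 genes were -0.05 in 14-0-0, -0.04 in 14-7-0, -0.02 in 0-0-2 and -0.01 in 14-7-2, 14-14-0 and home cage. Over all genes tested the medians lay between -0.01 and 0.01. Ntf5, the gene of another neurotrophin and listed at a mean of 0.153 FPKM, was below the minimum for testing.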

How the data were processed

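RNA of bilateral dorsal hippocampus was sequenced as single reads from poly-A selected TruSeq libraries. According to the submitters' processing notes, reads were aligned to mm10 with Bowtie and expression was normalized with Cuffnorm; versions, annotation and the normalization setting are not given in the sources used here. The deposited values are FPKM per gene, made by the authors, 1 column per library and without counts. Groups and cohorts came from the labels, and no column was left out.

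From these values log2(FPKM + 0.1) was computed, genes with a mean under 1 FPKM were dropped (11352 of 24346), and each pair of groups was fitted alone with limma 3.58.1 (R 4.3.3). The study's own test was the regularized test of Cyber-T. A version of it written here was an alternative, and its settings may differ from those of the study. A call is an unadjusted p under 0.05. No counts were used here, and so no count model. Permutation tests and correlations used Python 3.11.15 and scipy 1.17.1. The fits were checked on simulated data.

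The members and gene lists were chosen with earlier results of these data known. Genes named are the 6 members, the 3 tested genes most correlated with each, and at most 4 pathway genes per comparison called against sedentary. Some genes of the pathway list are not reported here by name. Alternatives changed the pseudocount, the minimum, the scaling, the libraries, the cohort, the block, the spread, the tool and the threshold. The choroid plexus score, its combination with leaving out sedentary replicate 6, the low minimum without that replicate, and leaving out 3 libraries together were added after the data were seen.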

Additional observations from a re-analysis of the deposited data

Results flagged for a closer look

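Within groups of 10 libraries, 9 of 42 combinations of gene and group held a library farther from its neighbour than Dixon's 95% limit, where chance alone gives about 1 in 20, or 2.1 of 42. Of these, 3 belonged to sedentary replicate 6, which was lowest for Bdnf (1.18 FPKM) and Sort1 (54.2 FPKM) and highest for Ngfr (6.31 FPKM). In 14-14-0, replicate 3 was lowest for Bdnf (12.4 FPKM) and highest for Ntrk2 (119 FPKM). In 0-0-2, replicate 4 was highest for Ntrk2 (117 FPKM). These are the 3 libraries with the highest summed cholinergic markers, whose part in the values was not tested. Home cage replicate 7 was lowest for Ntf3 (3.82 FPKM), 14-0-0 replicate 7 was highest for Ngfr (1.32 FPKM) and 14-0-0 replicate 5 was lowest for Sort1 (137 FPKM).

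The difference between groups changed with the harvest cohort in 4 cases with all libraries, by limma's test of cohort 2 minus cohort 1 at an unadjusted p under 0.05, and in none after adjustment. For Bdnf between 14-0-0 and 14-14-0 the change was -0.49 (17.3% of all genes called). For Ntrk2 it was -0.26 in 14-7-2 (2.42%) and -0.31 in 14-14-0 (2.03%), both against sedentary. For Ntf3 between 14-7-2 and 0-0-2 it was 0.83 (6.66%). Without sedentary replicate 6 the same test also passed for Bdnf in 14-0-0 (-0.43, 6.31%) and Sort1 in 14-7-0 (-0.24, 0.831%), both against sedentary.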

How the results depend on the processing

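Calls of members at an unadjusted p under 0.05 moved by 1 gene under many settings, mostly with sedentary replicate 6. Shares of all genes called were not computed for the choroid plexus score, Cyber-T, median-ratio scaling or the replicate block. Nor were they for p under 0.01 or for fits leaving out 1 library, so these counts have no background beside them. Against sedentary in 14-0-0 the count was 0, and it was 1 (Bdnf) without sedentary replicate 6, in cohort 1 alone, in the joint fit of 7 groups, with Cyber-T, with the choroid plexus score with and without that replicate, at the minimum of 0.1 FPKM without it, and without the 3 libraries of high cholinergic sums (0 to 1 leaving out 1 library). In 14-7-2 it was 1 in place of 0 in cohort 2 and in the joint fit (0 to 1 leaving out 1 library), in 14-14-0 it was 1 at the low minimum without replicate 6, and in home cage it was 1 at that setting and in cohort 1 (0 to 1 leaving out 1 library). Between 14-0-0 and 14-7-0 the count of 1 was 0 in cohort 2, in the joint fit and at p under 0.01, and between 14-0-0 and 14-14-0 it was 0 in cohort 2 and the joint fit. Between 14-7-2 and 14-7-0 the count of 0 was 1 at the minimum of 0.1 FPKM and in cohort 2 (0 to 1 leaving out 1 library), and between 14-7-2 and 0-0-2 the count of 1 was 0 with median-ratio scaling, in cohort 1, with Cyber-T, at p under 0.01 and without the 3 libraries (0 to 1). For any difference the count of 0 was 1 without replicate 6, in cohort 1 and without the 3 libraries, and 2 at the low minimum without replicate 6.

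Signs against sedentary turned for Bdnf in 14-7-0 (-0.017 without replicate 6, at either minimum or without the 3 libraries, and -0.0020 with the choroid plexus score as well), where leaving out 1 library gave -0.017 to 0.45. In 14-14-0 Bdnf was -0.19 without replicate 6, -0.13 without the 3 libraries, -0.22 in cohort 1, -0.047 with Cyber-T and -0.048 with the score and without replicate 6 (-0.19 to 0.28). In 0-0-2 it was -0.0085 without replicate 6 at either minimum (-0.0085 to 0.49), and in home cage -0.13 without it, -0.059 in cohort 1 and -0.026 with the score as well (-0.13 to 0.33). Bdnf between 14-7-2 and 0-0-2 was -0.039 in cohort 1. Ntrk2 in 14-7-2 was 0.045 in cohort 1, and in 14-14-0 it was -0.12 in cohort 2, -0.061 with the score and -0.027 with it and without replicate 6 (-0.0038 to 0.069). The causes were not tested. A pseudocount of 1 and the cohort as a covariate changed no call.

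Libraries were not treated as paired by replicate number. Per comparison, 2 to 7 of 10 same-numbered pairs correlated above 0.1 and 0 to 5 of 10 libraries matched their own number best. These counts do not settle whether the numbers pair the libraries. With a replicate block, Bdnf between 14-7-2 and 14-7-0 was called (0.14, limma p = 0.0464), which made the count 1 in place of 0, and no other tested member's call changed. The share of all genes called with the block was not computed. Read counts were not used here, and Ngfr, near the lowest levels in every library, is the least certain member.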
